A study of Homo sapiens with 8 samples.

Results

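The genes described here make, pack, receive and break down γ-aminobutyric acid (GABA), the main inhibitory transmitter of the brain. They are the 7 genes GAD1, GAD2, ABAT, SLC32A1, ALDH5A1, GABRA5 and GABRP, taken by symbol from a table of 35940 gene symbols. GAD1 was chosen by its measured values, a strong rise at 42 and 50 h that did not last, so its levels are given as a description with no test. The other members were named for their function. Poly(A) RNA was sequenced from ESI017, a wild-type human embryonic stem cell line, under neural differentiation. All cells went from the stem cell medium mTeSR1 into the neural medium N2B27, which held SB at 10 μM and LDN at 100 nM. Recombinant WNT3A protein, a ligand of the canonical WNT pathway, was added at 300 ng/mL 34 h into differentiation. The 4 groups are cells collected at 34 h, the time of that addition, and at 42, 50 and 72 h, with 2 libraries each, named replicate 1 and replicate 2. ESI017 is a single line, and the labels give the second replicate as an independent biological repeat. Cells kept without WNT3A were not analysed here, so effects of time and of WNT3A cannot be told apart.

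GABA is made from glutamate by glutamate decarboxylase, which has a pair of forms. GAD67, encoded by GAD1, supplies the general pool of the cell, and GAD65, encoded by GAD2, is tied to synaptic vesicles. The vesicular transporter encoded by SLC32A1 loads GABA for release, and plasma membrane transporters of the SLC6 family take it up again. GABA opens chloride channels built of GABA-A receptor subunits, among them the α5 subunit GABRA5 and the π subunit GABRP, and signals through the G protein-coupled GABA-B receptor. GABA transaminase, encoded by ABAT, and succinic semialdehyde dehydrogenase, encoded by ALDH5A1, break it down into a substrate of the citric acid cycle. GABA signalling is also known in stem cells and early neural progenitors before synapses form.

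Of the 7 members, GAD1 went from a trace to the highest level of the set and back part of the way, GABRA5 fell, ABAT and ALDH5A1 held low levels with no called change, and GAD2, SLC32A1 and GABRP stayed below 1 TPM but for GABRP in 1 library of 42 h. Values are TPM, a share of a library's transcripts scaled by gene length, so levels may be compared between genes. Differences are on the log2(TPM + 1) scale, which understates changes of low genes. Genes that reached 1 TPM in 2 or more libraries were tested with limma across all 4 time points, and a gene is called raised or lowered at a Benjamini-Hochberg adjusted p under 0.05 over the 14908 genes tested. GAD1, ABAT, ALDH5A1 and GABRA5 passed that filter, and the other 3 did not. Each library held 13860 to 14004 genes at 1 TPM or more, and libraries of the same time had Spearman correlations of 0.980 to 0.984. Depth is unknown, because TPM keeps no read numbers. In bulk RNA, fewer cells of a type and less RNA per cell cannot be told apart.

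GAD1 (ENSG00000128683) lies at chr2:170813213-170861151 on the plus strand of GRCh38 by GENCODE v29, as a protein-coding gene of 47939 bases. It was at 1.49 and 0.083 TPM in replicates 1 and 2 at 34 h, 48.0 and 43.5 at 42 h, 47.9 and 44.8 at 50 h, then 11.9 and 21.2 at 72 h. The 42 and 50 h libraries were therefore high and close together, the 34 h libraries were low, and the 72 h libraries lay between them without overlap. Means were 0.788 ± 0.997 (SD, n = 2), 45.8 ± 3.23, 46.3 ± 2.13 and 16.5 ± 6.57 TPM in order of time. The difference in log2(TPM + 1) from 34 h was 4.83 at 42 h, 4.30 within replicate 1 and 5.36 within replicate 2. At 50 h it was 4.85, and at 72 h 3.36, with 2.37 and 4.35 within the replicates. Between 50 and 72 h the level dropped by 1.49 on this scale, and between 42 and 50 h the difference was 0.02. Among the tested genes its difference ranked 3 at 42 h, 4 at 50 h and 31 at 72 h, counted from the highest rise, which restates how it was picked. By level, 14378 genes stood above GAD1 at 34 h, 3304 at 42 h, 3379 at 50 h and 7276 at 72 h. The plot of the members by library shows this course beside those of the other 6 genes.

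**Figure D1:**
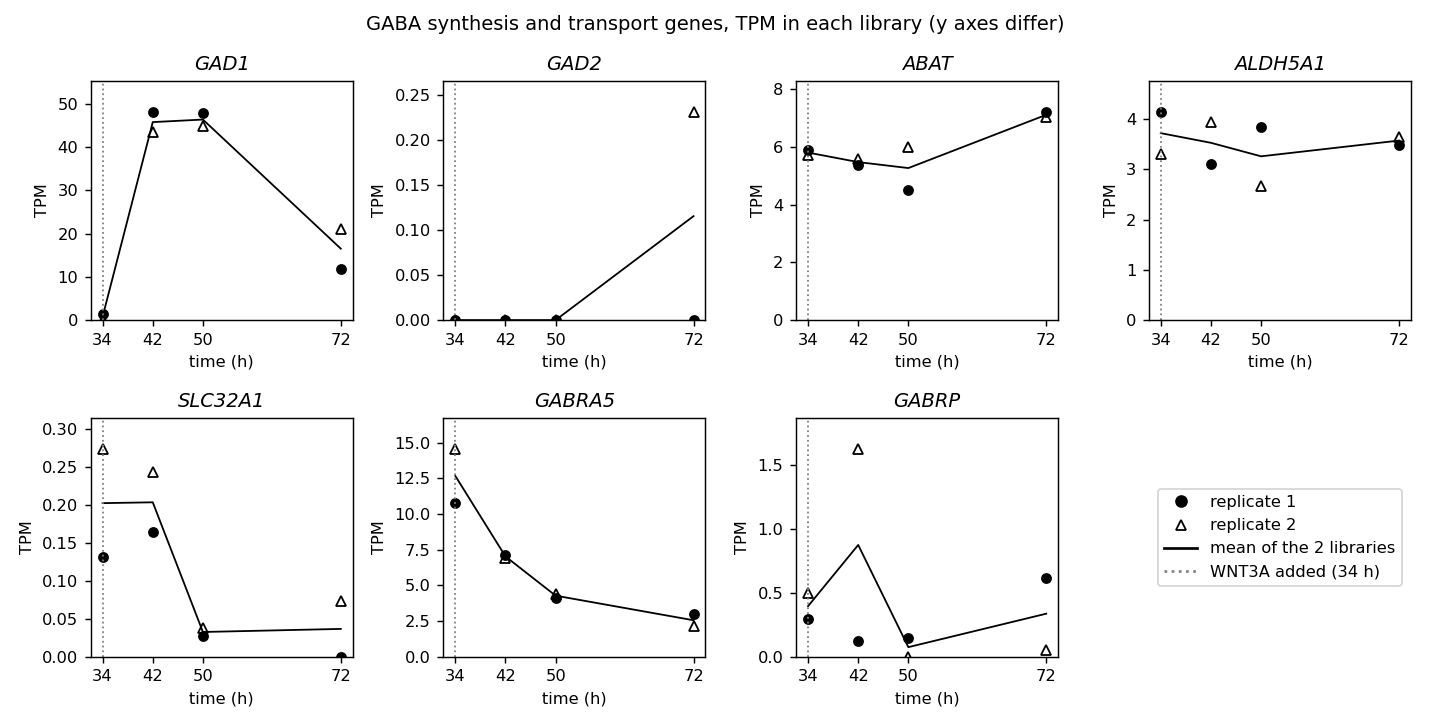
TPM (y axis, a separate scale in each panel) of the 7 genes against hours of differentiation (x axis). Filled circles are replicate 1, open triangles replicate 2, the line joins the means of the 2 libraries, and the dotted line marks the addition of WNT3A at 34 h. GAD1 peaks at 42 and 50 h between 43.5 and 48.0 TPM, GABRA5 is highest at 34 h, and the scales of GAD2 and SLC32A1 stay below 1 TPM.

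GAD2 (ENSG00000136750, chr10:26216307-26304558, plus strand), the paralogue of GAD1, was listed at 0 in all libraries but replicate 2 at 72 h, where it was at 0.23 TPM. SLC32A1 (ENSG00000101438, chr20:38724462-38729372, plus strand), the vesicular transporter, was at 0.131 and 0.274 TPM at 34 h, 0.164 and 0.243 at 42 h, 0.028 and 0.0374 at 50 h, then 0 and 0.0735 at 72 h. No library of either gene reached 1 TPM, so the high GAD1 level at 42 and 50 h stood with neither its paralogue nor the vesicular transporter at a comparable level. Plasma membrane transporters were low where given here. SLC6A11 was between 0.929 and 1.97 TPM over the 8 libraries and SLC6A12 between 0.308 and 1.34, neither of them called in any comparison, while SLC6A13 stayed below the filter. Other routes to GABA start from putrescine. ODC1, the enzyme that makes putrescine, was between 311.6 and 363.8 TPM and ALDH9A1, which oxidises γ-aminobutyraldehyde, between 43.0 and 53.1 TPM, and neither was called in any comparison.

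ABAT (ENSG00000183044, chr16:8674565-8784575, plus strand) was at 5.89 and 5.71 TPM at 34 h, 5.36 and 5.58 at 42 h, 4.52 and 6.01 at 50 h, then 7.20 and 7.02 at 72 h. The 72 h libraries were the highest, but the difference from 34 h, 0.25 with a 95% interval of -0.14 to 0.65, did not pass (adjusted p = 0.326, limma). Against 50 h the 72 h difference was 0.38, with an interval of -0.01 to 0.78 and an adjusted p of 0.239. ALDH5A1 (ENSG00000112294, chr6:24494852-24537207, plus strand) was at 4.14 and 3.30 TPM at 34 h, 3.11 and 3.95 at 42 h, 3.85 and 2.67 at 50 h, then 3.49 and 3.65 at 72 h. Its libraries overlapped between all times compared, and the 72 h difference from 34 h was -0.04 (interval -0.54 to 0.46, adjusted p = 0.916). AKR7A2, which reduces succinic semialdehyde instead of oxidising it, was at 41.4 and 36.9 TPM at 34 h and 52.8 and 59.3 at 72 h. It was raised at 72 h by 0.50 (adjusted p = 0.0140), a call lost without replicate 2 of 34 h (0.0888) or replicate 2 of 72 h (0.0987). The ratio of GAD1 to ABAT, 2 levels per length, was 0.253 and 0.0145 at 34 h, 8.96 and 7.79 at 42 h, 10.6 and 7.46 at 50 h, then 1.65 and 3.01 at 72 h. GAD1 was thus below ABAT in both 34 h libraries and above it in every later library. The annotated spans of ABAT and TMEM186, and of ALDH5A1 and GPLD1, overlap on opposite strands. Whether counting used strand is not given in the sources used here, so reads of genes that overlap a gene on the other strand may not be told apart, for any member.

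GABRA5 (ENSG00000186297, chr15:26866363-26949207, plus strand) was the highest member at 34 h and the fourth at 72 h. It was at 10.8 and 14.6 TPM at 34 h, 7.12 and 6.94 at 42 h, 4.15 and 4.42 at 50 h, then 2.99 and 2.13 at 72 h. No library overlapped with those of an earlier time. The log2 difference from 34 h was -0.75 at 42 h, which did not pass (adjusted p = 0.119, limma), -1.36 ± 0.20 (SE) at 50 h (adjusted p = 0.00605), and -1.94 ± 0.20 at 72 h (adjusted p = 0.000375). Without replicate 2 of 34 h, the higher library of that time, the 50 h difference was -1.16 and its adjusted p 0.0556. The steps from 42 to 50 h, -0.60, and from 50 to 72 h, -0.58, did not pass (adjusted p = 0.401 and 0.134). Of the 3 tested members other than GAD1, 0 were called at 42 h against a background of 2.58% of all tested genes, 1 at 50 h against 6.26%, and 1 at 72 h against 24.0%. None was called from 42 to 50 h or from 50 to 72 h, where the backgrounds were 0.0939% and 7.33% and 1 member, GABRA5, had an unadjusted limma p under 0.05 in each.

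GABRP (ENSG00000094755, chr5:170763350-170814047, plus strand) was at 0.296 and 0.496 TPM at 34 h, 0.124 and 1.63 at 42 h, 0.151 and 0 at 50 h, then 0.619 and 0.0552 at 72 h. Only replicate 2 of 42 h exceeded 1 TPM, and the libraries of 42 h differed more from each other than the means of any times did. Ordered by mean level, the members ran GABRA5, ABAT, ALDH5A1, GAD1, GABRP, SLC32A1 and GAD2 at 34 h. At 42 h GAD1 headed the order, ahead of GABRA5, ABAT and ALDH5A1. ABAT passed GABRA5 at 50 h, and at 72 h the order was GAD1, ABAT, ALDH5A1 and GABRA5. The libraries of GAD1 and GABRP overlapped at 34 h, those of GABRP and SLC32A1 at 42 and 50 h, and those of GABRP, GAD2 and SLC32A1 at 72 h, so those neighbours cannot be ordered. Without replicate 1 of 34 h GAD1 stood sixth of the 7 at that time.

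GABRA3 and GABRQ were other GABA-A receptor subunits at a few TPM. GABRA3, the α3 subunit, was at 4.68 and 5.92 TPM at 34 h and 5.64 and 5.34 at 72 h, with a 72 h difference of 0.05 (interval -0.36 to 0.46, adjusted p = 0.871). GABRA3 thus stood above GABRA5 at 72 h and below it at 34 h. GABRQ, the θ subunit, was at 4.98 and 4.59 TPM at 34 h and 2.56 and 2.94 at 72 h. It was lowered by -0.63 (adjusted p = 0.0309), lost without either 34 h library (0.131 and 0.0935) or either 72 h library (0.146 and 0.0811), with only the libraries of 34 and 72 h (0.0653) or with no filter (0.0593).

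**Figure D2:**
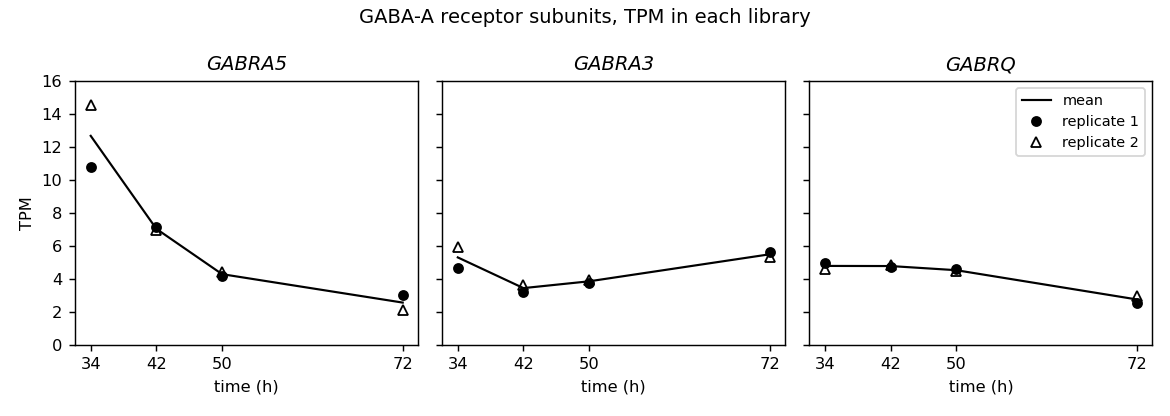
TPM (y axis, the same scale in each panel) of GABRA5, GABRA3 and GABRQ against hours of differentiation (x axis). Filled circles are replicate 1, open triangles replicate 2 and the line joins the means. GABRA5 starts highest, at 10.8 and 14.6 TPM, and ends below GABRA3, which is at 5.64 and 5.34 TPM at 72 h.

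GABRG3, the γ3 subunit whose start is 104.9 kb from that of GABRA5, was at 0.489 and 0.12 TPM at 34 h and 1.21 and 1.17 at 72 h and was not called. Its 72 h difference was 0.76 (interval -0.07 to 1.59, adjusted p = 0.168).

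On chromosome 2, 11 annotated genes start within 200 kb of GAD1, of which 4 are in the table and all 4 were tested. SP5, a transcription factor known as a direct WNT target, starts 97.9 kb upstream of GAD1 on the same strand. It was at 0.255 and 0.106 TPM at 34 h, 182.0 and 145.7 at 42 h, 226.5 and 149.2 at 50 h, then 201.4 and 194.4 at 72 h. SP5 was raised at 42 h by 7.12 (adjusted p = 1.93e-06), and unlike GAD1 its 72 h libraries lay within the range of its 50 h libraries. ERICH2, a glutamate-rich protein gene 29.4 kb upstream on the same strand, was at 1.52 and 2.31 TPM at 34 h, 7.89 and 6.92 at 42 h, 5.32 and 5.12 at 50 h, then 6.42 and 8.28 at 72 h. It was raised at 42 h by 1.54 (adjusted p = 0.00632, 0.0581 without replicate 1 of 42 h and 0.0591 when only the libraries of 34 and 42 h were fitted) and at 72 h by 1.52 (adjusted p = 0.00141). At 50 h it was raised by 1.11 (adjusted p = 0.0172), a call lost without replicate 1 of 34 h (0.103) or either 50 h library (0.0857 and 0.0674), with only the libraries of 34 and 50 h (0.0801) or with no filter on low values (0.0552). GORASP2, a Golgi stacking protein gene 115.3 kb downstream, stayed between 76.9 and 86.7 TPM and was not called. The pseudogene EIF2S2P4, 61.4 kb upstream, was not called either. The antisense gene AC007405.2 overlaps GAD1, and its transcripts were not analysed here.

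**Figure D3:**
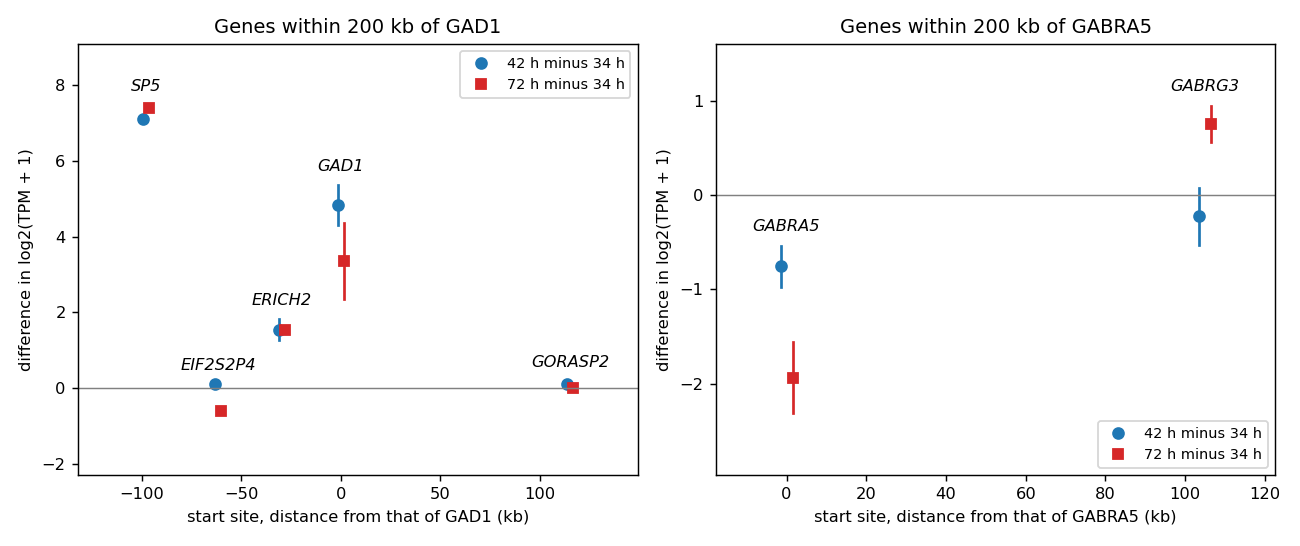
Difference in log2(TPM + 1) (y axis) of tested genes near GAD1 (left) and GABRA5 (right) against the distance of their start site in kb (x axis; the paired markers are set slightly apart). Circles are 42 h minus 34 h and squares 72 h minus 34 h, and vertical lines join the values within replicate 1 and replicate 2. Left of GAD1, SP5 and ERICH2 are above 0 at both times, and GORASP2 on the right is at 0.12 and -0.01.

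The 250 bases before the RefSeq start sites (GRCh38.p14) were searched on both strands for CTTTGA and CTTTGT, core words of TCF/LEF factors that act in the WNT pathway, and for GGGCGG, the GC box. Start sites were listed for 6 of the 7 members, in 10 windows. Of 35116 windows in all, 22.8% held CTTTGA or CTTTGT and 42.6% held GGGCGG. The GAD1 window, chr2:170816637-170816886 on the plus strand with 61.6% G and C, held none of the 3 words. It begins inside an annotated exon of GAD1, downstream of the GENCODE start of the gene at 170813213. The bases before that GENCODE start were not searched. The SP5 window held 3 CTTTGA words, 147, 109 and 83 bases before the start, and 1 CTTTGT word 157 bases before it. ERICH2, another neighbour of GAD1 that was raised, had 3 windows and no TCF/LEF word in them. Among the members, such words were in ABAT windows 2 (CTTTGA 151 and CTTTGT 226 bases before its start) and 4 (CTTTGT 105 bases before) and in the GABRP window (CTTTGA 70 bases before). The GAD2 window nearest the annotated start held 1 GC box and no TCF/LEF word, and the first ABAT window, at the annotated start, held 4 GC boxes and no TCF/LEF word. These matches describe letters and no binding was measured. The parts outside annotated exons are given below 5′ to 3′ on the plus strand to set SP5, 1 of the neighbours that were raised, beside the paralogue GAD2 and the breakdown gene ABAT, with words in capitals (a word on the other strand reads TCAAAG or CCGCCC). The GC box of GAD2, 61 bases before the start, lies in the exonic part and is not printed.
SP5 chr2:170715087-170715336: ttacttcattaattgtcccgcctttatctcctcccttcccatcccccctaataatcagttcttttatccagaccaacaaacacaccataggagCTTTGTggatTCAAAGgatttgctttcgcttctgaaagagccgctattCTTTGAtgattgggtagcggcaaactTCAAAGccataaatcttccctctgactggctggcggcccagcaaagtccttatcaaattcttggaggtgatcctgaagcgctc
GAD2 chr10:26216122-26216306: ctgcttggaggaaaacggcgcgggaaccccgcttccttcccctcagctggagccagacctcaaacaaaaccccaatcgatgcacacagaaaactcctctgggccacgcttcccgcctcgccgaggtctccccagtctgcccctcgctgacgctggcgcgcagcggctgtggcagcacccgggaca
ABAT chr16:8674367-8674564: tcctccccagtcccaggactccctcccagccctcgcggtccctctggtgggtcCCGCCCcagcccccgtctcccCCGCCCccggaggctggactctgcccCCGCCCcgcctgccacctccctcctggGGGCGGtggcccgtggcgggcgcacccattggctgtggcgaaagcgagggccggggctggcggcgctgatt

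The course of GAD1 was compared with those of 11539 tested genes with a mean of at least 5 TPM at some time, by Pearson correlation of log2(TPM + 1) over the 8 libraries. The points share time and library, so the coefficients are a description. The 5 most alike were WNT5B (0.992), a WNT ligand, AXIN2 (0.990), a WNT feedback inhibitor, MYCL (0.982), a MYC family factor, TRIB2 (0.981), a pseudokinase, and FBXL13 (0.980), an F-box protein gene. WNT5B came closest in level as well, with 1.69 and 0.918 TPM at 34 h, 52.9 and 42.1 at 42 h, 49.6 and 43.9 at 50 h, then 12.7 and 16.3 at 72 h. AXIN2 started higher, at 20.6 and 15.7 TPM, reached 101.4 and 85.9 at 42 h, and was at 63.9 and 70.9 at 72 h. Leaving out any single library kept 2 or 3 of these 5 among the 5 most alike, so the order within the top is loose. The 3 least alike were LRP10 (-0.984), NMU (-0.963) and ANOS1 (-0.960), which were highest at 34 h. The neighbours SP5 (0.930, rank 84) and ERICH2 (0.832) and the member GABRA5 (-0.63) were less alike to it.

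**Figure D4:**
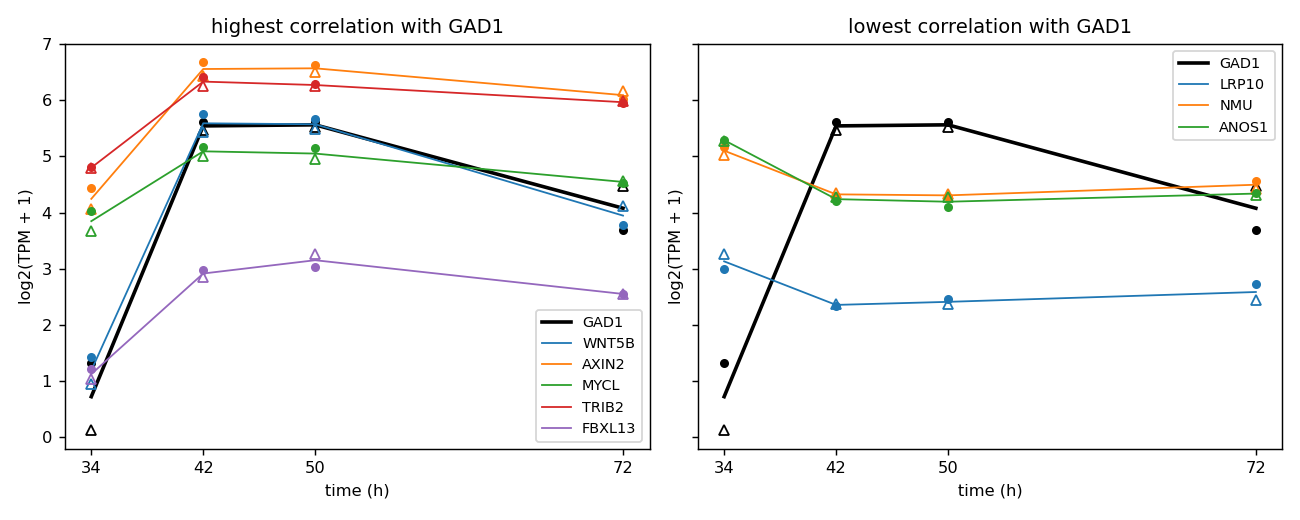
log2(TPM + 1) (y axis) against hours of differentiation (x axis) for GAD1 (black) with the 5 genes of the highest correlation (left) and the 3 of the lowest (right). Filled circles are replicate 1, open triangles replicate 2 and lines join the means. GAD1 and WNT5B run together between 42.1 and 52.9 TPM at 42 and 50 h.

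Markers of other cell types moved with these values, and their part in them was not tested. All 6 caudal progenitor markers (TBXT, NKX1-2, CDX1, CDX2, SP5, SP8) were raised at 42 h, where 2.58% of all tested genes were called in either direction. Their summed level was 25.2 and 28.7 TPM at 34 h, 366.1 and 310.8 at 42 h, 399.4 and 304.0 at 50 h, then 230.3 and 234.1 at 72 h. The sum was highest at 42 and 50 h, where GAD1 was highest, and at 72 h most of it was SP5. The other 5 were lowered from 50 to 72 h, where 7.33% of all tested genes were called. The calls of CDX2 and SP8 were lost without some single library of these times. NKX1-2, the next most abundant, was at 22.4 and 25.3 TPM at 34 h, 146.8 and 133.3 at 42 h, then 15.9 and 25.6 at 72 h. Of the 6 pluripotency markers 4 (DPPA4, POU5F1, TDGF1, ZFP42) were lowered at 72 h, beside 11.3% of all tested genes. The sum of all 6, mostly POU5F1 and TDGF1 at 34 h, was 2425 and 2461 TPM at that time. It was 618.9 and 635.9 TPM at 72 h, beside the fall of GABRA5. NANOG was not called at 72 h. PRDM14 was at 23.7 and 20.4 TPM at 34 h, 7.28 and 8.56 at 42 h, then 28.8 and 24.5 at 72 h. It was raised from 50 to 72 h by 1.24 (adjusted p = 0.0038, limma). Neural progenitor markers were raised at 72 h in 4 of 6 (NES, PAX6, SOX1, SOX2), beside 12.7% of all tested genes. Of 7 neuron markers, DCX and STMN2 were raised at 72 h, beside 12.7% of all tested genes. DCX lost its call without replicate 2 of 34 h or either 72 h library. The summed level, most of it TUBB3, was 277.3 and 222.6 TPM at 34 h and 329.0 and 255.0 at 42 h. It was 321.1 and 258.7 TPM at 50 h and 192.2 and 222.9 at 72 h. TUBB3 was at 261.0 and 209.6 TPM at 34 h and 168.0 and 201.5 at 72 h. Its 72 h difference of -0.34 was not called. STMN2, a marker of young neurons, was at 0.32 and 0.256 TPM at 34 h and 8.01 and 7.10 at 72 h, whereas the highest values of SNAP25, ELAVL3 and ELAVL4 were 1.01, 1.25 and 0.988 TPM. SYT1, a synaptic vesicle protein gene, was between 7.17 and 12.7 TPM over the 8 libraries and was not called. Of 15 transcription factors of GABAergic neurons, 4 were tested. LHX5 was between 13.2 and 33.7 TPM over the 8 libraries, while PAX2, LHX1 and LHX6 reached at most 4.79, 3.24 and 1.25 TPM. LHX1 was called at 42 h, raised, and LHX5, lowered, and PAX2, raised, at 72 h. Among those not tested, DLX5 reached 0.696 TPM and DLX1, DLX2 and GSX2 stayed below 0.4 TPM. The 8 surface ectoderm and amnion markers, a setting where GABRP is known, had a sum of 36.6 and 42.5 TPM at 34 h and 8.07 and 6.07 at 72 h, nearly all of it KRT7, and GATA3 was listed at 0 in all libraries but 1. Of 8 mesoderm and endoderm markers 3 were tested. FOXA2 was at 11.9 and 13.4 TPM at 34 h and 0.575 and 0.866 at 72 h, and was lowered by -2.99 (adjusted p = 1.91e-05, limma). MIXL1 was at 0.115 and 0.108 TPM at 34 h and 1.47 and 1.81 at 50 h, where it was raised by 1.25 (adjusted p = 0.0232), a call lost without either 34 h library (0.111 and 0.121) or either 50 h library (0.0780 and 0.106). EOMES reached 1.33 TPM at 42 h and was not called there, and SOX17 was listed at 0 in all libraries.

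The wider GABA system was taken as 74 other genes, of which 46 were tested. At 42 h 3 of them were called (6.52%), at 50 h 4 (8.70%), and at 72 h 18 (39.1%), beside the 2.58%, 6.26% and 24.0% of all tested genes. At 72 h 8 of the 46 were raised and 10 lowered, where 12.7% and 11.3% of all tested genes were. The median difference of the 46 genes at 72 h was 0.04, against 0.06 over all tested genes. Between 42 and 50 h limma called 0 of the 46 (5 at an unadjusted p under 0.05), and between 50 and 72 h 5 (10.9%, against 7.33%). Among those called at 42 h SLC1A2 and LHX1 were raised, and LHX1 lost its call without either 34 h library (0.0894 and 0.174) or either 42 h library (0.154 and 0.0805), with only the libraries of these times (0.0804) or with a pseudocount of 0.1 (0.0866). At 50 h SLC38A5 was lowered and SLC1A2 and SLC1A3 raised. There SLC1A3 lost its call without either 34 h library (0.0982 and 0.135) or replicate 1 of 50 h (0.130), and SLC38A5 when any 1 library of 34, 42 or 50 h was left out (0.0512 to 0.159). From 50 to 72 h GLS2, LHX1 and SLC38A5 were lowered and NLGN2 raised. Each of these lost its call when some single library was left out, with adjusted p-values of up to 0.185, 0.219, 0.151 and 0.106, and with only the libraries of 50 and 72 h (0.0952, 0.0857, 0.101 and 0.0696). The count at 72 h against 34 h was 9 to 17 when a single library was left out. It was lowest without replicate 2 of 34 h or replicate 2 of 72 h and next lowest without replicate 1 of 72 h. The count over all tested genes also fell in some fits without a library, as given below.

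Among genes that supply glutamate, the substrate of GAD1, 6 of 12 tested were called at 72 h, 3 in each direction, beside 24.0% of all tested genes. SLC1A2, a glutamate transporter, was at 0.426 and 0.906 TPM at 34 h, 4.15 and 4.24 at 42 h, 4.35 and 4.07 at 50 h, then 2.79 and 2.81 at 72 h, a course that peaked with GAD1. It was raised at 42 h by 1.66 (adjusted p = 0.00521, and 0.0574 when only the libraries of 34 and 42 h were fitted) and at 72 h by 1.21 (adjusted p = 0.00496). GLS2, a glutaminase, was at 7.16 and 7.73 TPM at 34 h and 2.10 and 2.22 at 72 h and was lowered by -1.42 (adjusted p = 0.00283). SLC38A5, a glutamine transporter, was at 35.5 and 30.6 TPM at 34 h and 11.2 and 13.3 at 72 h and was lowered by -1.36 (adjusted p = 0.000352). GLUL, glutamine synthetase, was the most abundant of those called, at 279.8 and 215.7 TPM at 34 h and 414.8 and 407.5 at 72 h, a rise of 0.74 (adjusted p = 0.0107). That call was lost without replicate 2 of 34 h (0.0691), replicate 1 of 72 h (0.0609) or replicate 2 of 72 h (0.0529). SLC1A3, another glutamate transporter, was raised at 72 h by 1.03 (adjusted p = 0.0209), lost without either 34 h library (0.0686 and 0.0980) or either 72 h library (0.0716 and 0.103). The neuronal glutamate transporter SLC1A1 was lowered at 72 h by -1.34 (adjusted p = 0.00816, and 0.0571 without replicate 2 of 34 h).

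On the receiving side GABBR1, the ligand-binding subunit of the GABA-B receptor, was at 78.8 and 83.6 TPM at 34 h, 93.6 and 97.9 at 42 h, 94.3 and 99.6 at 50 h, then 116.8 and 129.0 at 72 h. It was raised at 72 h by 0.59 (adjusted p = 0.00309). These values sum several Ensembl rows of the symbol. The row in the primary GENCODE annotation was raised by 0.84 (adjusted p = 0.00913), while the other large row differed by 0.38 (adjusted p = 0.168), so the split between copies is uncertain. Its partner GABBR2 was under the filter, between 0.272 and 1.84 TPM, and the auxiliary subunit KCTD8 was lowered from 5.52 and 5.22 to 1.05 and 0.505 TPM at 72 h, by -1.86 (adjusted p = 0.00115). SLC12A5, the neuronal chloride exporter KCC2, was at 9.05 and 6.94 TPM at 34 h and 14.8 and 19.3 at 72 h and was raised by 1.00 (adjusted p = 0.00602). The chloride importer SLC12A2 was at 7.48 and 5.49 TPM at 34 h and 5.42 and 4.66 at 72 h and was not called. NLGN2, an adhesion protein of inhibitory synapses, was at 54.5 and 47.3 TPM at 34 h and 78.1 and 81.8 at 72 h and was raised by 0.64 (adjusted p = 0.00500). The calls of GABBR1, KCTD8, SLC12A5, NLGN2, GLS2, SLC38A5 and SLC1A2 at 72 h passed under all alternatives run, apart from the GABBR1 row given above. PAX2 was also raised at 72 h and KCTD12, GABARAPL1 and LHX5 lowered, all with calls that single libraries decided. KCTD12 lost its call whichever of the 8 libraries was left out (adjusted p 0.0637 to 0.200), and PAX2 (0.0733 to 0.102) when any 1 library of 34 or 72 h was. The call was lost for GABARAPL1 without replicate 2 of 34 h or either 72 h library (0.0736 to 0.111), and for LHX5 without replicate 1 of 34 h or either 72 h library (0.0643 to 0.0727).

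**Figure D5:**
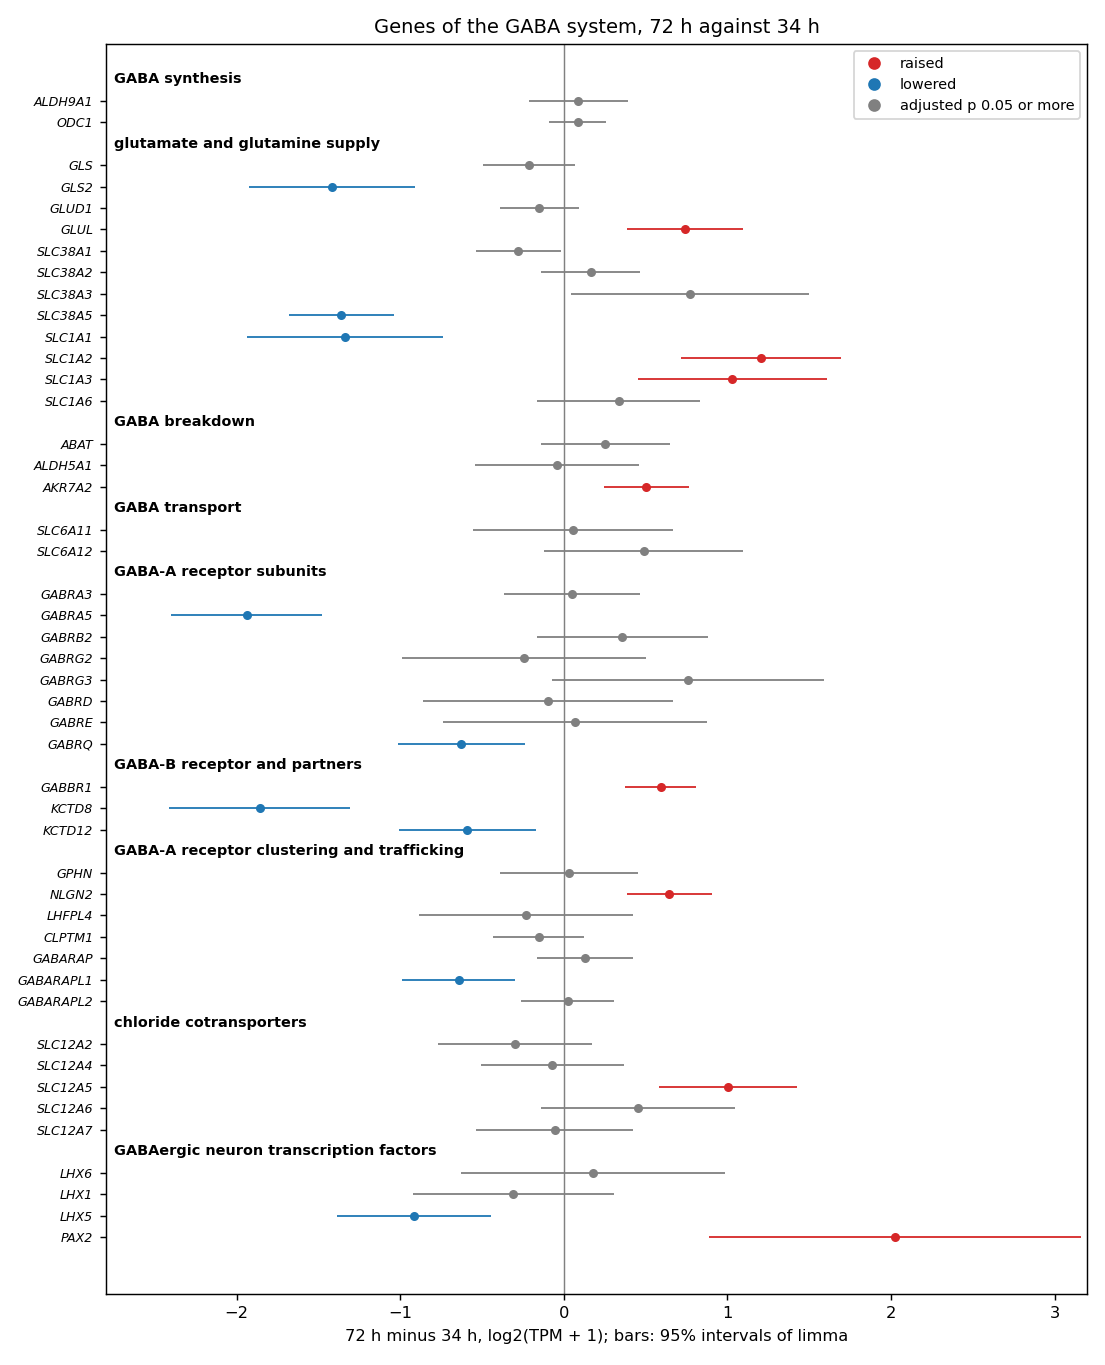
Difference in log2(TPM + 1) between 72 h and 34 h (x axis) for tested genes of the GABA system by role (y axis), GAD1 left out. Points are limma estimates and bars their 95% intervals, red for raised, blue for lowered and grey for an adjusted p of 0.05 or more. Among the receptor subunits plotted, GABRA5 at -1.94 lies furthest to the left.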

How the data were processed

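The data were poly(A) RNA-seq libraries of ESI017 cells at 4 time points. The deposited values are TPM per Ensembl gene, 1 column per library, each summing to 1000000; Salmon 1.9.0 and GRCh38 are named in the submitters' processing notes, and the annotation release and strand setting are not given in the sources used here. TPM of the 37951 rows were summed by symbol (1034 symbols had several rows). Symbols with at least 1 TPM in at least 2 libraries were fitted as log2(TPM + 1) with limma 3.58.1 in R 4.3.3 (1 mean per time point, mean-variance trend, all 8 libraries, two-sided). P-values were adjusted by Benjamini-Hochberg over 14908 genes. On data simulated for 42 h against 34 h over these 14908 genes, 51%, 88% and 94% of 200 changed genes were recovered at log2 folds of 1, 2 and 4. The changed genes were drawn from those with a 34 h mean above 1 in log2(TPM + 1) and changed at 42 h only. All other genes were left unchanged. The rates therefore do not cover genes that started lower. Positions are from GENCODE v29 and promoters from RefSeq.

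Genes named are the members, genes of the wider list that were called or had a mean of 10 TPM, genes starting within 200 kb of a member, and the 5 most and 3 least like GAD1; the transporters, GABAergic factors and single markers named besides these were chosen after their values were seen. Results of some genes that met this rule are not reported here. The members and lists were chosen with earlier results of these data known. The replicate number is also the labels' batch number, so it pairs libraries. Differences between replicates correlated across genes at 0.0949, 0.195 and 0.142 among 34, 42 and 50 h, and at -0.0445, -0.0779 and -0.104 with 72 h. Alternatives were a pseudocount of 0.1, no filter, scaling by TMM, a trimmed mean (written in R), the replicate block, the compared time points alone, Ensembl rows apart, and leaving out each library.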

Additional observations from a re-analysis of the deposited data

How the results depend on the processing

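Of 1401 comparisons of a result with an alternative, covering 102 results, 1192 kept their side of the threshold or moved little, 147 kept direction but no longer passed, 62 moved and 0 called values reversed; 12 of those kept were values with no call that changed sign (2 of ABAT, 7 of ALDH5A1 and 3 of GAD1); the causes were not tested beyond the smaller number of libraries. Fitting the compared time points alone gave 171 genes at 42 h against 34 h, 431 at 50 h against 34 h, 0 at 50 h against 42 h (1089 at an unadjusted limma p under 0.05) and 367 at 72 h against 50 h, in place of 384, 933, 14 and 1093. For 50 h against 42 h there were 4 genes with Ensembl rows apart and 8 without the filter. In the wider list, the time points alone left 1 gene at 42 h and 1 from 50 to 72 h, rows apart left 3 from 50 to 72 h, and no filter left 2 at 50 h. Fitted alone, the time points also ended the calls of SLC38A5 at 50 h (0.101) and KCTD12 at 72 h (0.0838), and no filter those of SLC38A5 (0.0543) and SLC1A3 (0.0746) at 50 h, PAX2 (0.0581), SLC1A3 (0.0573) and KCTD12 (0.0825) at 72 h and GLS2 from 50 to 72 h (0.102). Rows apart ended those of KCTD12 at 72 h (0.0542) and GLS2 from 50 to 72 h (0.0524), and TMM rescaling that of LHX1 from 50 to 72 h (0.0502). With the replicate block, the pairing by batch label, 7 list genes were called at 50 h instead of 4 and 7 of all genes from 42 to 50 h; of the genes named, KCTD12 at 72 h (0.0654), LHX1 and MIXL1 from 50 to 72 h (0.0674 and 0.0697), DCX at 50 h (0.0561) and STMN2 at 42 h (0.0604) lost their calls, and no call of a member changed.

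Leaving out single libraries gave 160 to 385 genes at 42 h, 412 to 809 at 50 h, 1840 to 3661 at 72 h, 1 to 8 from 42 to 50 h and 319 to 929 from 50 to 72 h. The wider list gave 1 to 4, 2 to 4, 9 to 17, 0 to 0 and 1 to 4. GABRA5 at 50 h ranged from -1.56 to -1.16. A pseudocount of 0.1 gave GAD1 differences of 6.41, 6.43 and 4.88 at 42, 50 and 72 h. Unknown depth limits statements on GAD2, SLC32A1 and GABRP, whose low values carry no counting interval.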

Other observations

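Some genes near the other members also differed between times. Of all tested genes, 24.0% were called at 72 h against 34 h, 11.3% as lowered. Within 200 kb, 5 genes near ABAT and 4 near ALDH5A1 were tested. The 3 genes given next were picked from those called, so they do not describe these regions as a whole. TMEM114, 84.4 kb upstream of ABAT, was at 3.26 and 2.72 TPM at 34 h and 0.348 and 0.296 at 72 h, and was lowered by -1.59 (adjusted p = 0.00239, limma), while ABAT was not called. MRS2, a mitochondrial magnesium channel gene 91.9 kb upstream of ALDH5A1, was at 39.5 and 43.4 TPM at 34 h and 20.6 and 20.2 at 72 h, and was lowered by -0.98 (adjusted p = 0.000488). ACOT13, a thioesterase gene 172.2 kb downstream of ALDH5A1, was lowered by -0.67 at 72 h (adjusted p = 0.00303). All 3 passed at 72 h whichever single library was left out. No test compared these genes with the members.

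PTF1A, a transcription factor of GABAergic neurons, was listed at 0 in all libraries but replicate 2 of 42 h, where it was at 2.14 TPM. The same library held the highest GABRP value, 1.63 TPM, against 0.124 in replicate 1 of that time. Both were chosen after their values were seen, and nothing beyond these values was tested.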
